A study of Mus musculus with 24 samples.

Results

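The 39 genes described here encode the core machinery that copies DNA: the proteins that license and open replication origins, the polymerases, the sliding clamp and its loader, the enzymes that join the lagging strand and those that supply nucleotides. They were chosen by symbol, and all 39 were found once each among the 37979 genes of the deposited table. All 39 reached a group mean of at least 1 FPKM (fragments scaled to transcript length and to the mapped total) in at least 1 group, so all of them were among the 17156 genes tested. A low-value gene could reach this minimum through its highest group alone.

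The study sorted macrophages and monocytes from lungs of male C57BL/6 mice aged 10 to 16 weeks. Tumour-bearing mice had received LLC-Luc cells, a Lewis lung carcinoma line carrying luciferase, in the left lobe, and naive mice were not injected. Naive lungs gave MacA-N (SiglecF+ CD11c+), MacB1-N (CD11b+ Ly6G- CD64low CD11c+) and MacB2-N (CD11b+ Ly6G- CD64med CD11c-). From tumour-bearing mice, MacA and MacB2 by the same gates and MacB3 (CD11b+ Ly6G- CD64hi CD11c+) were taken at 2 weeks (MacA-2wk, MacB2-2wk, MacB3-2wk), and MacB2 and MacB3 again at 3 weeks (MacB2-3wk, MacB3-3wk). Each of the 8 groups had 3 libraries from 3 independent experiments, and each library held cells pooled from 3 to 5 mice. All lobes were taken from naive mice and only the tumour-bearing left lobe from the others, so tumour and kind of tissue cannot be told apart. All MacA libraries ran on lane 1 and replicates 1, 2 and 3 of every MacB group on lanes 2, 3 and 7, so lane and population cannot be told apart wherever MacA was compared with MacB.

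In a dividing cell, the origin recognition complex, Cdc6 and Cdt1 load the ring of Mcm2 to Mcm7 onto DNA before S phase. Cyclin E with its partner Cdk2, and other kinases, then trigger the joining of Cdc45 and GINS, which turns the ring into an active helicase. Most of these genes are transcribed in late G1 under E2F transcription factors, so their RNA is low in resting cells. Alveolar macrophages are known to maintain themselves by local division, whereas monocyte-derived cells are renewed from the bone marrow.

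Depth could only be compared in relative terms, because FPKM holds no read counts. Relative to the deepest library, estimated depth ranged from 0.52 to 1, and library sums from 1880236 to 4868372 FPKM. Annotated miRNA made up 43.7% to 75.1% of a library's sum. Summed FPKM of marker lists separated MacA from MacB, but the lists include genes of the sort markers themselves. The 10 alveolar macrophage markers came to 7850 to 10010 in MacA-N and 6248 to 7384 in MacA-2wk, and to at most 1280 in any MacB library. The 8 markers of CD11b+ macrophages or monocytes came to 160.7 to 246.6 in MacA libraries and 1104 to 5471 in MacB libraries. They do not check the CD64 and CD11c gates within MacB: their sum was 3947 to 5471 in MacB2-N (CD64med) and 1104 to 1417 in MacB3-3wk (CD64hi). The 9 lung epithelial markers came to 3377 to 10350 FPKM in MacB2-N, 3609 to 13010 in MacB1-N and 710 to 5398 in MacA-N. In libraries from tumour-bearing mice they came to 128 to 2459, and their part in the results was not tested.

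Sequences in front of the genes were examined for the E2F motif, because these genes are classic E2F targets. RefSeq promoter windows (GRCm38.p6, 250 bases before to 50 after the start of transcription) were available for 32 of the 39 genes, in 37 windows. The motif was searched on both strands as TTTCCCGC, TTTGGCGC, TTTCGCGC or TTTGCCGC, and matches that overlapped were counted apart. It stood in a window of 16 of the 32 genes, that is in 43.2% of their 37 windows, against 2.26% of all 32851 windows of the same length. For comparison, 1 of the 18 windows of mitosis genes (5.56%) held it. A match is a description of the letters and does not show a binding site. The windows of 5 genes follow, 5′ to 3′ on the strand of the gene, with E2F matches in capitals. Of these, 4 hold a match and belong to genes whose levels differed between groups. That of Tk1, whose levels ran differently, holds none. Genes without a match also differed between groups, such as Mcm2 and Rrm2. Other genes with a match, such as Gins3, Orc1, Pole2 and Pold3, passed the test described below in no comparison. The windows of these genes are not shown, so the 5 are no sample of the 32.

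Mcm5: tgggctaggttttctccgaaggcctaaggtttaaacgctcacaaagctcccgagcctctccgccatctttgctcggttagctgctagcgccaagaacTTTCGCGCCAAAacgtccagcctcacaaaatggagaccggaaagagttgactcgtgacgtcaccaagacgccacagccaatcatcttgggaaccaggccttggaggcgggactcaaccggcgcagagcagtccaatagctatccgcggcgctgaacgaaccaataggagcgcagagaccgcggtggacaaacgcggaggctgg
Mcm6: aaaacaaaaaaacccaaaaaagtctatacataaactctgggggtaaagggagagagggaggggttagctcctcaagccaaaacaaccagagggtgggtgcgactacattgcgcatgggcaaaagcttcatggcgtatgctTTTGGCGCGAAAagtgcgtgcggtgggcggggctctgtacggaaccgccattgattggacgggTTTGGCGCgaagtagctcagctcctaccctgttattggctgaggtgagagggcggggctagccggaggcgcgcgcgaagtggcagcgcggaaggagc
Rfc3: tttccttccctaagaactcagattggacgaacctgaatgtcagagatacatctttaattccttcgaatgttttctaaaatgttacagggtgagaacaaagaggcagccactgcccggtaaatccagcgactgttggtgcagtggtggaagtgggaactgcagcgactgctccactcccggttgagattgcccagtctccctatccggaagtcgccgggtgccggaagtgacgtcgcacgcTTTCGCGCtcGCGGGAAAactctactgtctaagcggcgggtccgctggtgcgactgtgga
Hells: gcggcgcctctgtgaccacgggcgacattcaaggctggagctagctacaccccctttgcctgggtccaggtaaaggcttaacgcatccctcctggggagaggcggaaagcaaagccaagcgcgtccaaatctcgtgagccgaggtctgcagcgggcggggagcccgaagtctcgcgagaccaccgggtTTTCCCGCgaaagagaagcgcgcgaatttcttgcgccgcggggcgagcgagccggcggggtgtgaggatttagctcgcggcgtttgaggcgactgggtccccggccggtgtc
Tk1: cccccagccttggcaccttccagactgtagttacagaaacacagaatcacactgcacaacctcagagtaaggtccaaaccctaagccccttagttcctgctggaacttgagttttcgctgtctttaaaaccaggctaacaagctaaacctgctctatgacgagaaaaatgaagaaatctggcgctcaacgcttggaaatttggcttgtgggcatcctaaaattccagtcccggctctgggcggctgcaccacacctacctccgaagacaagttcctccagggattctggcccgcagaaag

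The Mcm6 window (chr1:128359656-128359955, minus strand) held 3 matches, the first pair overlapping each other, and that of Mcm5 (chr8:75109259-75109558, plus strand) held 2 that overlapped. In Rfc3 (chr5:151651159-151651458, minus strand) 1 match began 10 bases before the start of transcription and the other at it. Hells (chr19:38930740-38931039, plus strand) had 1 match 62 bases upstream of its start, and Tk1 (chr11:117825965-117826264, minus strand) had none. In MacB2-3wk against MacB2-N, described below, 11 of the 16 genes with a match and 10 of the 16 without one passed the test. In MacB1-N against MacB2-N the counts were 8 of 16 and 2 of 16, and in MacB1-N against MacA-N they were 4 of 16 and 5 of 16. The difference between these counts was not tested.

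Across the 8 groups the replication genes were lowest in MacB2-N. The median of the 39 group means was 2.14 FPKM there, 4.28 in MacB1-N and 4.71 in MacB2-2wk, and between 9.51 and 16.2 in the other 5 groups. Of the 39 genes, 27 had their lowest group mean in MacB2-N, and 13 each had their highest in MacA-2wk and MacB3-3wk. Averaged over the genes as log2(FPKM + 1), the 3 libraries of MacB2-N stood at 1.97 to 2.05, below all other libraries, whose lowest was 2.59. MacA-N libraries stood at 3.27 to 3.36, MacB2-3wk at 3.40 to 3.46, MacB3-2wk at 3.36 to 3.67 and MacB3-3wk at 3.37 to 3.92. The heatmap shows the MacB2-N columns as the darkest for most genes. Between the highest and the lowest group mean, Pcna and Pold3, an accessory subunit of polymerase delta, differed least (1.83-fold and 1.88-fold in FPKM). Pole (46.3-fold) and Mcm10 (33.4-fold), with lowest means of only 0.112 and 0.190 FPKM, differed most, followed by Hells (30.1-fold). As these are bulk samples, fewer dividing cells and less RNA per cell cannot be told apart.

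**Figure D1:**
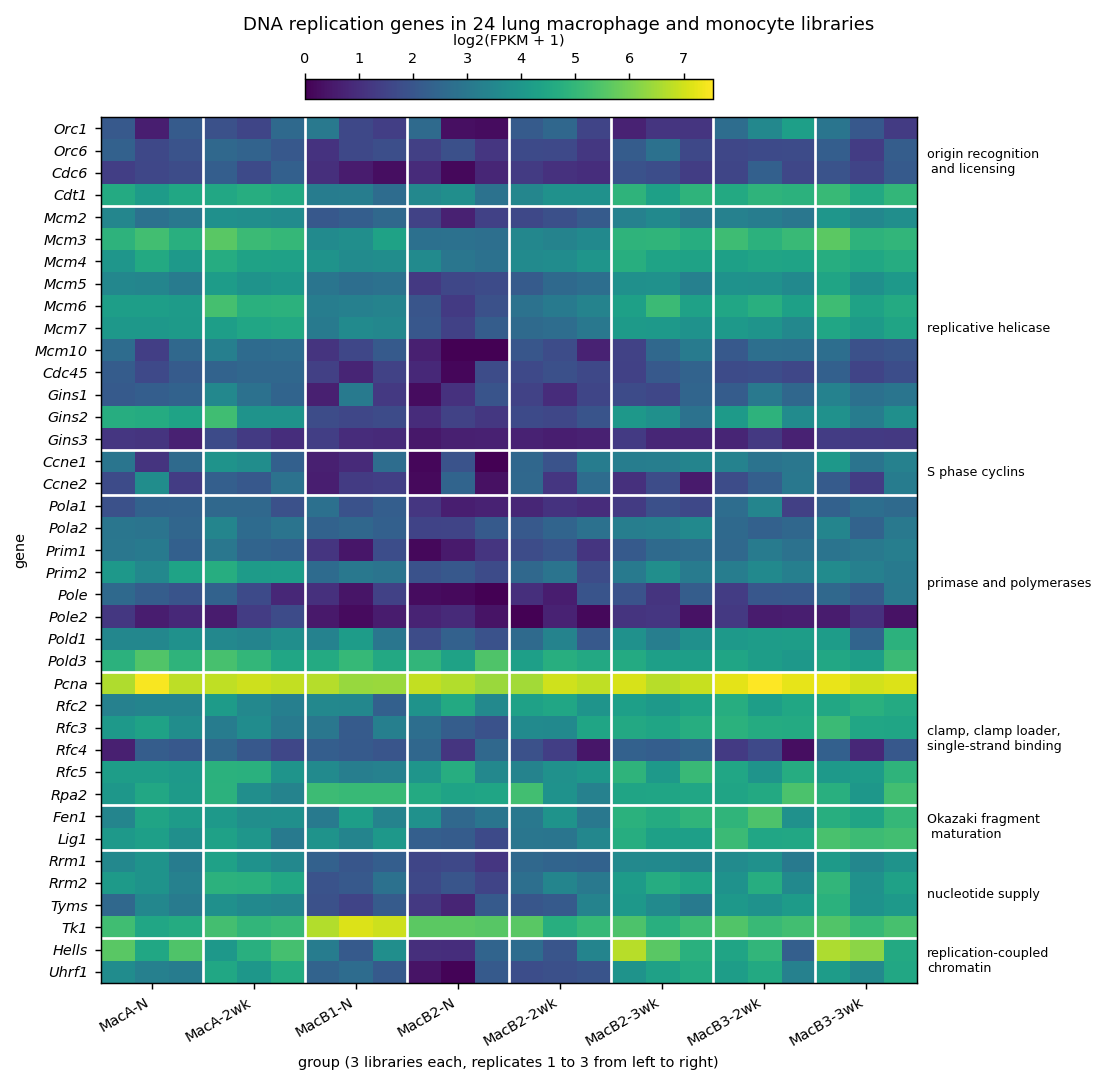
Heatmap of log2(FPKM + 1) for the 39 replication genes (rows, grouped by role) in the 24 libraries (columns, 3 per group). Most rows are darkest in MacB2-N, where the median of the genes was 2.14 FPKM, and Pcna is bright in all 8 groups.

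Pcna, the sliding clamp that holds polymerases on DNA and also serves in repair, was the gene with the highest mean level in 7 of the 8 groups (99.5 to 162 FPKM). Pole2, the second subunit of polymerase epsilon, was the lowest in 7 of 8 (0.259 to 1.44 FPKM). Among the 6 subunits of the MCM ring, whose proteins join in equal numbers, RNA levels differed within every group: Mcm2 was the lowest in all 8, and the highest was Mcm3 in 6 groups and Mcm4 in MacB2-N and MacB2-2wk. The highest subunit exceeded the lowest 2.91-fold in MacB3-3wk and 5.84-fold in MacB2-N, on the FPKM scale. Summed over the 6, the level of MacB2 was 22.4 FPKM in naive lungs, 43.4 at 2 weeks and 108.8 at 3 weeks.

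Every fold change below is a difference of group means of log2(FPKM + 1), which understates the change of genes near 0, and is given ± its SE. All come from 1 limma fit over the 24 libraries. A gene was called when its Benjamini-Hochberg adjusted p over all 17156 genes was under 0.05 and its fold at least 2, with n = 3 per group throughout. Several comparisons share the libraries of a group and are not independent of each other.

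**Figure D2:**
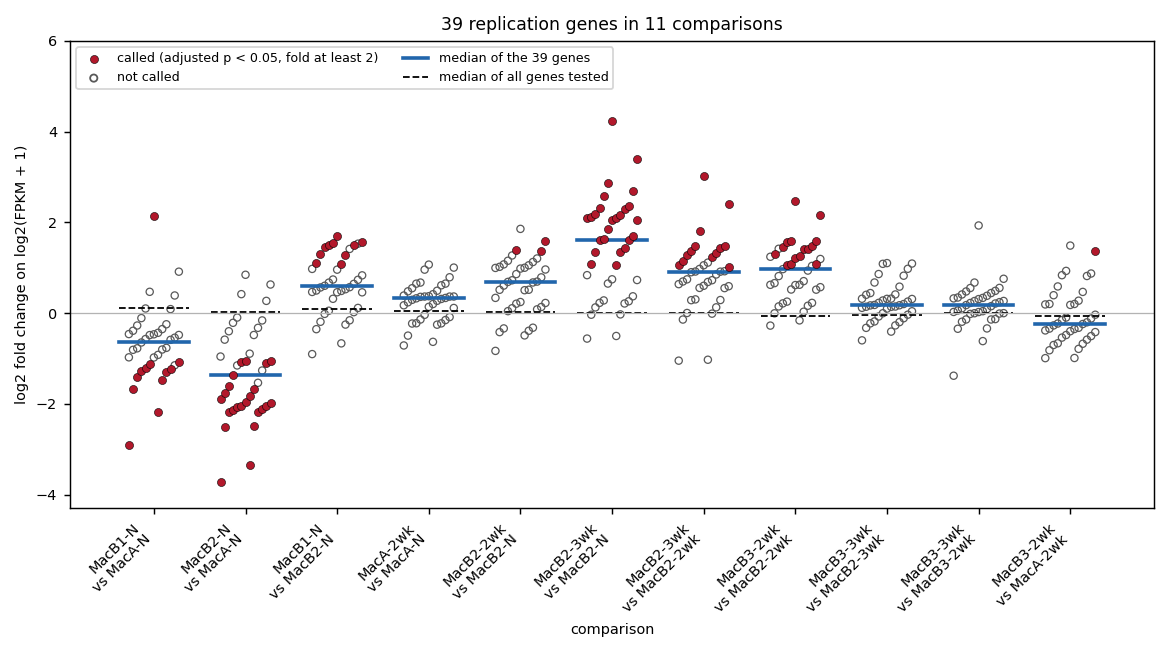
Log2 fold change of each of the 39 replication genes (1 point per gene) in 11 comparisons, with called genes filled, the median of the 39 as a solid line and the median of all genes tested as a dashed line. The median of the replication genes lies at 1.61 for MacB2-3wk against MacB2-N and at -1.36 for MacB2-N against MacA-N, and no gene is filled in 3 of the 11 columns.

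Naive lungs were compared first, to ask how the populations differ without a tumour. In MacB2-N, 23 of the 39 replication genes were lower than in MacA-N and none was higher, while 10.2% of all genes tested were lower and 10.7% higher. Their median log2 fold change was -1.36, that of all genes 0.03. All 6 MCM subunits were among the 23, as were Mcm10 and Cdc45, factors that activate the helicase, and Gins2. Of the primase and polymerase genes 6 of 8 were lower, of the nucleotide enzymes 3 of 4, of the origin licensing genes 1 of 4 (Cdt1) and of the clamp, clamp loader and single-strand binding genes 1 of 6 (Rfc3).

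Hells, a chromatin remodeller needed for DNA methylation, measured 48.2, 21.3 and 43.5 FPKM in the MacA-N libraries and 1.03, 0.980 and 4.41 in those of MacB2-N. The groups stood far apart, although the MacA-N libraries differed among themselves. The log2 fold change was -3.71 ± 0.70 (limma, adjusted p = 0.0004). Gins2, a GINS subunit, measured 25.2, 24 and 19.9 FPKM in the MacA-N libraries and 0.953, 1.81 and 1.34 in those of MacB2-N. Every MacA-N library stood far above every MacB2-N library. Its log2 fold change was -3.35 ± 0.36 (limma, adjusted p = 5.8e-07). Gins2 shares 2758 of its 4097 annotated exonic bases with exons of Gse1, and strand use is not given, so reads of the 2 genes cannot be told apart there; Gse1 itself had means of 12.3 and 15.8 FPKM in MacA-N and MacB2-N.

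Mcm6 lay at 16.5 to 17.8 FPKM in the MacA-N libraries and at 1.44 to 2.98 in MacB2-N (log2 fold change -2.48 ± 0.26, limma, adjusted p = 3.6e-07). Mcm3 lay at 26.2 to 37.0 FPKM in MacA-N and at 5.71 to 6.08 in MacB2-N (-2.18 ± 0.22). Uhrf1, which reads hemimethylated DNA behind the fork, fell by 2.51 ± 0.42 on the log2 scale; its MacB2-N library of replicate 3, at 3.38 FPKM, stood above the other two (0.312 and 0.0506) but below every MacA-N library (7.91 to 11.8). Prim1, the catalytic primase subunit, was lower by a log2 change of -2.17 ± 0.34. The other 17 called genes changed by -2.15 to -1.06.

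The G1/S regulators did not all go the same way. Of 30 listed, 3 were higher and 7 lower in MacB2-N, among the latter E2f1, an activator of replication genes, at 5.34 FPKM against 19.4 (-1.74 ± 0.23 in log2, limma, adjusted p = 1.1e-05). Cyclin A2 (Ccna2) was at 2.28 FPKM against 21.7 (-2.82 ± 0.35). Ccnd2, a D-type cyclin, had a log2 change of -4.07 ± 0.25, Cdk6, a kinase partner of D-type cyclins, of -1.97 ± 0.18, and E2f7, an E2F repressor that is itself induced in S phase, of -2.92 ± 0.48. Of 20 mitosis genes 17 were lower, including Top2a (2.19 against 23 FPKM) and Mki67 (1.42 against 21.8). Of 41 other replication genes tested 13 were lower and 3 higher, with Asf1b, a histone chaperone, at -2.19 ± 0.45 and Chaf1a, a chromatin assembly factor, at -2.03 ± 0.26. Samhd1, which degrades the nucleotides that Rrm1 and Rrm2 make, went the other way: it was at 528 to 654 FPKM in MacB2-N and 218.5 to 262.5 in MacA-N, with no overlap (1.37 ± 0.17, limma, adjusted p = 2.8e-06). Of 6 listed regulators of macrophage self-renewal 3 were higher and 2 lower in MacB2-N. Among the lower was Bhlhe41, a factor known to sustain alveolar macrophages, with a log2 fold change of -4.71 ± 0.40. None of 10 fibroblast and none of 10 endothelial markers was called. Their sums were still higher in MacB2-N: fibroblast markers came to 21.4 to 38.5 FPKM in MacA-N and 47.5 to 149 in MacB2-N. Endothelial markers came to 103 to 150 and 146 to 522 FPKM. Of 6 dendritic cell markers tested 3 were higher in MacB2-N. The 9 T cell markers summed to 414 to 467 FPKM in MacA-N and 16.6 to 34.5 in MacB2-N, with 1 of 8 tested higher in MacB2-N and 1 lower (Cd2, chosen after its values were seen), and Trac and Trbc2 were at 0 in all MacA-N libraries. The part of such cells in the result was not tested.

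MacB1-N lay between the other naive populations in the mean over the 39 genes, at 2.66 ± 0.0628 (SD, n = 3) in log2(FPKM + 1) against 3.33 ± 0.0456 in MacA-N and 2.02 ± 0.0422 in MacB2-N. Against MacA-N, 11 of the 39 were lower and 1 higher, beside 8.71% and 15% of all genes tested. Against MacB2-N, 10 were higher and none lower, beside 3.5% and 1.7%. The median log2 fold changes were -0.65 and 0.60, and those of all genes 0.12 and 0.09. Both comparisons use the MacB1-N libraries, and the groups differ in CD11c as well as CD64.

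Gins2 was low in MacB1-N too, at 2.02 to 2.35 FPKM in its 3 libraries against 19.9 to 25.2 in MacA-N (log2 fold change -2.90 ± 0.36, limma, adjusted p = 4e-06). Hells was at 7.90, 3.42 and 12.3 FPKM, each below the lowest MacA-N library (-2.18 ± 0.70, limma, adjusted p = 0.022), and this call was lost without any of 3 libraries: replicates 1 and 3 of MacA-N (adjusted p = 0.0748 and 0.0667) and replicate 2 of MacB1-N (0.101). The licensing factor Cdt1 was at 5.37 to 8.07 FPKM against 16.8 to 23.5 (-1.42 ± 0.23). Prim1 (-1.67 ± 0.34) and Rrm2, the S phase subunit of ribonucleotide reductase (-1.48 ± 0.33), were also lower, and the other 6 lower genes changed by -1.31 to -1.07. Beside them, 9 of 10 endothelial, 9 of 10 fibroblast and 5 of 6 dendritic cell markers were higher in MacB1-N. So were 6 of 8 T cell, 3 of 6 B cell, 2 of 5 NK cell and 4 of 9 lung epithelial markers. Lower were 1 T cell, 1 B cell and 2 lung epithelial markers. The part of all these cells in the result was not tested.

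Tk1, the thymidine kinase of the nucleotide salvage pathway, departed from the rest. In MacB1-N it stood at 100.1, 139.8 and 122.9 FPKM, against 36.5, 21 and 23.9 in MacA-N and 48.5, 48.6 and 47.3 in MacB2-N. The MacB1-N libraries were above every other library of the study, in which Tk1 never passed 48.6 FPKM. The log2 fold change was 2.14 ± 0.23 against MacA-N (limma, adjusted p = 6.8e-07) and 1.30 ± 0.23 against MacB2-N (adjusted p = 0.0013). Tk1 shares only 83 of its 5198 annotated exonic bases with another gene, Afmid, which was at 7.67 FPKM in MacB1-N.

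Between MacB1-N and MacB2-N the largest change was that of Lig1, the ligase that seals Okazaki fragments. Lig1 was at 13.5, 9.65 and 15.3 FPKM in MacB1-N and at 3.83, 3.62 and 2.23 in MacB2-N, without overlap (1.71 ± 0.28, limma, adjusted p = 0.0006). Mcm6 was at 8.07 to 9.34 against 1.44 to 2.98 FPKM (1.56 ± 0.26) and Mcm7 at 7.63 to 11.2 against 1.74 to 3.67 (1.5 ± 0.21). Uhrf1 (1.53 ± 0.42), Pold1, the catalytic subunit of polymerase delta (1.49 ± 0.44), and Pola1, that of polymerase alpha (1.47 ± 0.37), completed the 6 largest. In the fit of the 18 MacB libraries with replicate number, which is the lane, as a block, Uhrf1 (adjusted p = 0.0725) and Pold1 (0.118) were no longer called, and leaving out single libraries ended the call of Uhrf1 in 5 of 6 cases (adjusted p up to 0.181) and that of Pold1 in 5 of 6 (up to 0.197). The call of Pola1 was lost without replicate 1 (0.0834) or 3 (0.0516) of MacB1-N or replicate 2 of MacB2-N (0.0853), after quantile normalization (0.07) and when only the compared groups were fitted (0.101). For Uhrf1, replicate 3 of MacB2-N and the lowest MacB1-N library both stood at 3.38 FPKM. Only 5 of the 10 genes were called after quantile normalization, 3 when only the 6 libraries compared were fitted, and 6 without replicate 3 of MacB1-N or replicate 2 of MacB2-N. Counts of all genes over such settings are given further below. The mitosis list had 9 of 20 genes higher and none lower, with Top2a at 11.4 against 2.19 FPKM. Beside these values, 7 dendritic cell markers summed to 136 to 154 FPKM in MacB1-N and 43.8 to 54.2 in MacB2-N, and the 10 endothelial markers to 492 to 644 and 146 to 522. Of those tested, 1 of 6 dendritic cell and 0 of 10 endothelial markers were called higher. So were 2 of 8 T cell, 2 of 6 B cell and 1 of 5 NK cell markers, with none lower in these lists. The 10 alveolar macrophage markers, of which 5 were called higher, summed to 782 to 1280 and 390 to 688. The part of these cells in the result was not tested.

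The next question was how each population differed between naive and tumour-bearing lungs. In MacA at 2 weeks none of the 39 genes was called by limma in either direction, beside 0.729% of all genes higher and 0.0583% lower. At an unadjusted p under 0.05 there were 6 of 39, against 10.8% of all genes, and the count of called genes stayed at 0 under every alternative tried. Replication genes had a median log2 fold change of 0.32, and all genes of 0.05. Uhrf1 had a log2 fold change of 1.00 ± 0.42 and Rrm2 of 0.96 ± 0.33, with limma adjusted p of 0.374 and 0.236. Rrm2 was at 16.2, 13.6 and 8.95 FPKM in MacA-N and 27.8, 26.4 and 22.1 in MacA-2wk, which did not overlap, whereas Hells (21.3 to 48.2 against 15.3 to 38.6) and Gins2 overlapped widely. Fibroblast markers summed to 344 FPKM in replicate 3 of MacA-2wk, where Krt18 was at 22, and to 41.6 in the lowest of the others. The 4 keratins listed for carcinoma cells, Krt18 among them, summed to 454 to 518 FPKM in MacA-N and 235 to 376 in MacA-2wk, with none called. The part of these markers in the result was not tested.

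In MacB2 at 2 weeks, 3 of the 39 genes were higher than in MacB2-N and none lower, beside 1.66% and 0.227% of all genes. They were Rfc3, Mcm6 and Rrm2. The median log2 fold change of the 39 was 0.69, that of all genes 0.03, and 33 of the 39 estimates were above 0. The count depends on how low values are treated: it was 10 with a pseudocount of 0.1 and 6 with 0.5 in place of 1. It also depends on the libraries fitted, being 0 when only the 6 compared were used. The shares of all genes called under these settings are not given here.

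Rfc3, a subunit of the clamp loader, was at 5.6, 3.66 and 2.76 FPKM in MacB2-N and at 11.2, 11 and 20.4 in MacB2-2wk. Replicate 3 of the tumour group was the highest, and the groups did not overlap. Its log2 fold change was 1.59 ± 0.30 (limma, adjusted p = 0.0064), and without that library the call was lost (adjusted p = 0.058). Mcm6 rose from 1.44 to 2.98 FPKM across MacB2-N to 6.21 to 9.26 across MacB2-2wk (1.38 ± 0.26, limma, adjusted p = 0.006). Rrm2 was at 1.9 to 2.95 and 5.69 to 9.72 FPKM (1.36 ± 0.33, limma, adjusted p = 0.033; 0.0675 with the lane block over the MacB libraries), and leaving out replicate 1 or 3 of MacB2-N, or 2 or 3 of MacB2-2wk, ended its call (adjusted p 0.0956 to 0.112). Without replicate 3 of MacB2-2wk 1 gene was called, and without replicate 3 of MacB2-N 5 were. Fits that left out 1 library called 141 to 295 of all genes, beside 284 higher and 39 lower in the full fit. Among genes of S phase entry and mitosis, Ccna2 rose by 2.07 ± 0.35, E2f7 by 2.56 ± 0.48, and Ube2c, which targets cyclin B for destruction, by 3.45 ± 0.31 in log2, with 7 of 20 mitosis genes and 4 of 30 G1/S regulators higher and none lower. Among the 41 other replication genes none was called. Fibroblast markers, of which 2 of 10 were called higher, summed to 47.5 to 149 FPKM in MacB2-N and 181 to 237 in MacB2-2wk; their part in the result was not tested.

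By 3 weeks 25 of the 39 replication genes were higher in MacB2 than in naive MacB2 and none was lower, beside 9.67% and 5.04% of all genes. In log2, their median change was 1.61 and that of all genes 0. The 25 covered each role: 2 of 4 licensing genes (Cdt1, Cdc6), 9 of 11 helicase genes, Ccne1 of the 2 E-type cyclins, 5 of 8 primase and polymerase genes, Rfc3 alone of the 6 clamp, clamp loader and single-strand binding genes, both Fen1 and Lig1, 3 of 4 nucleotide genes, and both Hells and Uhrf1. Within lanes the median difference of the 39 genes was 1.39 on lane 2, 1.63 on lane 3 and 1.55 on lane 7.

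Hells was at 105, 47.8 and 26.8 FPKM in MacB2-3wk and 1.03, 0.980 and 4.41 in MacB2-N. Its tumour libraries differed widely among themselves but all lay above the naive ones. The log2 fold change was 4.23 ± 0.70 (limma, adjusted p = 0.00023). Uhrf1 was at 13.7, 18.8 and 23.5 FPKM against 0.312, 0.0506 and 3.38, again without overlap (3.40 ± 0.42, limma, adjusted p = 1.2e-05). Mcm6 was at 18.6, 34.1 and 18.8 FPKM against 2.98, 1.44 and 2.66 (2.86 ± 0.26, adjusted p = 4.4e-07), and Rrm2 at 16.5, 24.4 and 20.1 against 2.08, 2.95 and 1.9 (2.69 ± 0.33). Cyclin E1 (Ccne1), which fires origins with Cdk2, was at 8.12, 8.33 and 9.51 FPKM, above naive libraries at 0.0952, 2.83 and 0 (2.58 ± 0.60, adjusted p = 0.004). Lig1 was at 24.9, 18.4 and 18 against 3.83, 3.62 and 2.23 FPKM (2.35 ± 0.28). The other 19 genes rose by 1.05 to 2.32 in log2.

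The 14 genes that were not called included Pcna (105 to 133 against 84.4 to 114 FPKM, log2 fold change 0.26 ± 0.19), Tk1 (26.2 to 41.8 against 47.3 to 48.6, the tumour libraries being lower), Pold3, Rfc2, Rfc4, Rfc5 and Rpa2. Across all 11 comparisons 12 genes were never called: Gins1, Gins3, Orc1, Orc6, Pcna, Pole2, Pold3, Rfc2, Rfc4, Rfc5, Rpa2 and Ccne2. Of these, 6 stayed under 10 FPKM in every group mean. Orc1, the largest subunit of the origin recognition complex, varied within groups: it ranged from 0.187 to 5.10 FPKM within MacB2-N and from 5.49 to 18.1 within MacB3-2wk. Pcna was abundant in every library, from 81.3 to 185 FPKM.

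**Figure D3:**
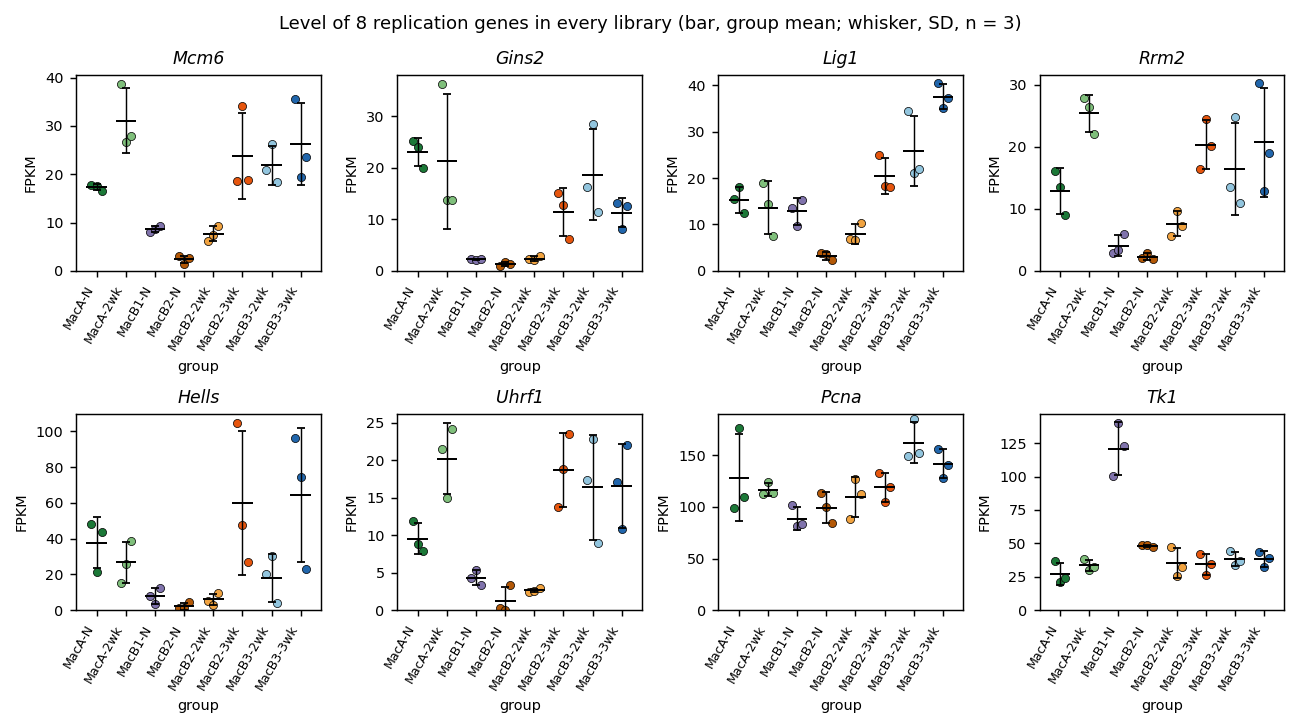
FPKM of 8 replication genes in every library (points), with group mean (bar) and SD (whisker, n = 3). Mcm6, Gins2, Lig1, Rrm2, Hells and Uhrf1 are lowest in MacB2-N and higher in the MacB2-3wk and both MacB3 groups, Pcna differs at most 1.83-fold between group means, and Tk1 stands above 100 FPKM in MacB1-N alone.

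Of 20 mitosis genes 16 were higher and none lower, led by Ube2c (5.11 ± 0.31), Nusap1 (4.77 ± 0.67), Tpx2 (4.42 ± 0.42) and Top2a, at 51.3 to 67.7 against 0.630 to 3.31 FPKM (4.36 ± 0.33, limma, adjusted p = 1.1e-07). Of the 41 other replication genes 15 were higher and 3 lower; Cdc7, the kinase that fires origins, rose by 2.70 ± 0.51 in log2, Dut, which keeps uracil out of DNA, by 2.62 ± 0.47, and Pold2 by 2.44 ± 0.39. The 3 that fell were Dna2, Mcmbp and Samhd1, the first pair named after their values were seen and the last falling from 528 to 654 FPKM to 237 to 319 (-1.17 ± 0.17, limma, adjusted p = 5.6e-05). Of 30 G1/S regulators 9 were higher and 1 lower, with E2f7 at 4.23 ± 0.48, Ccna2 at 3.83 ± 0.35, Myc at 3.46 ± 0.39 and Ccnd2 at 2.11 ± 0.25. E2f1 was not called (7.15 against 5.34 FPKM), nor was Cdkn1a, the p21 inhibitor of cyclin-dependent kinases, at 259.9 to 406 and 259.4 to 370 FPKM (0.15 ± 0.26, limma, adjusted p = 0.765).

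Markers of other cells changed in this comparison too. Fibroblast markers summed to 491 to 887 FPKM in MacB2-3wk and 47.5 to 149 in MacB2-N, with 5 of 10 called higher and 1 lower. Of the 4 keratins listed for carcinoma cells, 2 were higher: Krt18 was at 37.6, 39.4 and 42.6 FPKM against 1.02 to 2.00, and Krt8 at 11.1 to 12.3 against 0 to 1.59. These keratins were not particular to tumour-bearing lungs: the 4 summed to 52 to 59 FPKM in MacB2-3wk and to 454 to 518 in naive MacA-N. Endothelial markers, at 66.7 to 91.7 against 146 to 522, and 8 markers of CD11b+ macrophages or monocytes, at 1787 to 1949 against 3947 to 5471, had lower sums, with 4 of 10 and 5 of 8 called lower. The largest sum in naive libraries was that of 9 lung epithelial markers, at 3377 to 10350 FPKM against 578 to 839, with 3 called lower. Of the markers tested, 3 of 6 dendritic cell and 2 of 5 erythroid genes were also lower. The part of these cells in the result was not tested.

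**Figure D4:**
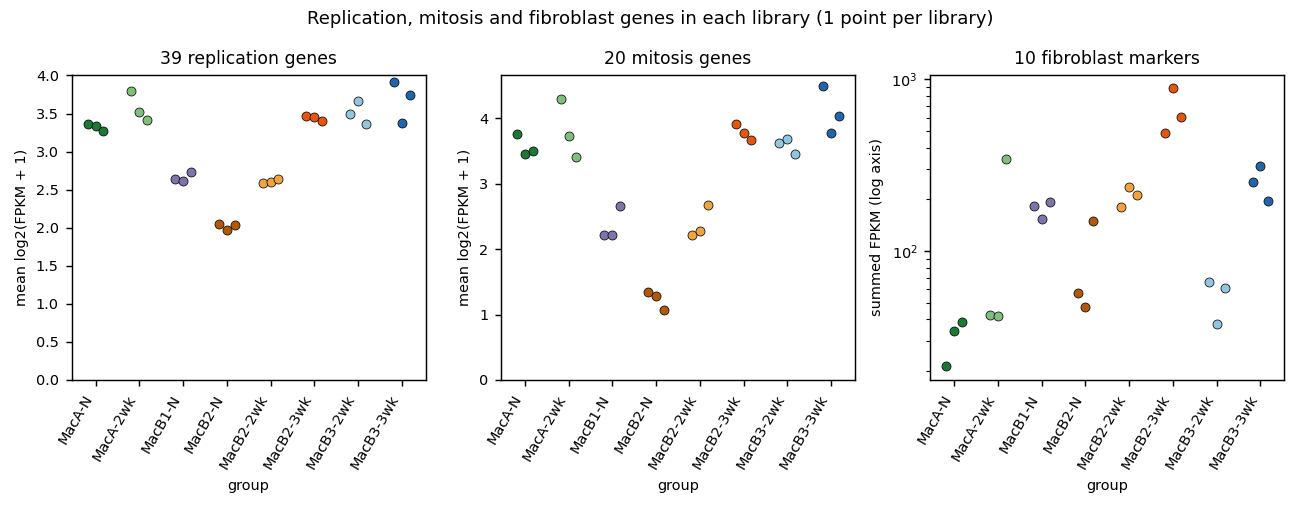
Mean log2(FPKM + 1) of the 39 replication genes (left) and of 20 mitosis genes (middle), and the summed FPKM of 10 fibroblast markers on a log axis (right), with 1 point per library by group. MacB2-N is lowest in the first 2 panels, and the fibroblast sum is highest in MacB2-3wk, at 491 to 887 FPKM.

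Between 2 and 3 weeks of tumour growth MacB2 gained in 13 of the 39 genes and lost in none, beside 3.06% and 1.28% of all genes. The median log2 fold change was 0.90 against 0 for all genes, and the median difference within lanes was 0.94, 0.75 and 0.77 on lanes 2, 3 and 7. Hells rose from 2.97 to 9.56 FPKM across MacB2-2wk to 26.8 to 105 across MacB2-3wk (3.02 ± 0.70, limma, adjusted p = 0.014). Uhrf1 rose from 2.46 to 2.89 to 13.7 to 23.5 FPKM (2.41 ± 0.42) and Gins2 from 2.02 to 2.86 to 6.19 to 15.1 (1.81 ± 0.36). None of these 3 genes overlapped between the weeks. Mcm6 (1.48 ± 0.26), Mcm2 (1.43 ± 0.24) and Fen1, the flap endonuclease that trims Okazaki fragments (1.48 ± 0.40, limma, adjusted p = 0.032), followed, and the remaining 7 rose by 1.01 to 1.37.

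The call of Fen1 depended on the fit. With the lane block over the 18 MacB libraries its adjusted p was 0.0557, and it was lost without any of 5 of the 6 libraries compared (0.0568 to 0.105). That of Hells was lost without replicate 2 of MacB2-2wk (0.0647) or replicate 1 of MacB2-3wk (0.0766). The exons of Fen1 share 2039 bases with Gm10143 and Tmem258; Gm10143 had a group mean of at most 0.496 FPKM, and Tmem258 was at 89.5 FPKM in MacB2-2wk and 108 in MacB2-3wk. Fitted on the 6 libraries alone, the comparison called 4 of the 39 genes instead of 13, and without replicate 1 of MacB2-2wk it called 9. Fits that left out 1 library called 459 to 749 of all genes, beside 525 higher and 219 lower in the full fit. Among the G1/S regulators 4 of 30 were higher and 1 lower. Myc rose with them, from 85.3 to 154 FPKM to 296 to 496 (1.87 ± 0.39), and 10 of 20 mitosis genes and 6 of 41 other replication genes were higher with none lower. Of 10 fibroblast markers 2 were higher and 1 lower, and 5 of 10 endothelial markers were lower with none higher. Krt18 was again higher, from 6.28 to 7.73 FPKM to 37.6 to 42.6. The part of these markers in the result was not tested.

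MacB3, the CD64hi CD11c+ population of tumour-bearing lungs, was then compared with MacB2 of the same lungs. At 2 weeks 15 of the 39 genes were higher in MacB3 and none lower, beside 3.15% and 4.21% of all genes. Replication genes had a median log2 fold change of 0.97, and all genes of -0.08. Helicase genes made up 6 of the 15, with 3 of 8 primase and polymerase genes, 2 of 4 nucleotide genes, both Okazaki fragment genes, Cdt1 and Uhrf1. Within lanes the median difference was 0.82, 1.09 and 0.62.

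Gins2 was at 16.2, 28.4 and 11.4 FPKM in MacB3-2wk and 2.21, 2.02 and 2.86 in MacB2-2wk. Every MacB3 library was well above every MacB2 library. The log2 fold change was 2.46 ± 0.36 (limma, adjusted p = 0.00018), with Gse1, whose exons it shares, at 15.8 and 12.1 FPKM. Uhrf1 was at 17.3, 22.8 and 8.92 against 2.46, 2.54 and 2.89 FPKM (2.17 ± 0.42), Lig1 at 34.4, 21.2 and 21.9 against 6.81, 6.58 and 10.3 (1.58 ± 0.28), and Mcm3 at 36.0, 27.6 and 33.7 against 10.1, 9.28 and 11 (1.58 ± 0.22, adjusted p = 0.00011). The groups did not overlap for any of the 3. Pola1 was called (1.57 ± 0.37) with libraries at 5.51, 9.76 and 1.71 FPKM, the last of which was close to the MacB2-2wk range of 0.742 to 1.13. Thymidylate synthase (Tyms), which makes dTMP, was at 13.4 to 16.5 against 3.08 to 9.34 FPKM (1.49 ± 0.38, adjusted p = 0.017). The call of Pola1 was lost without replicate 2 of MacB3-2wk (limma, adjusted p = 0.0615), and that of Tyms without replicate 1 (0.0791) or 2 (0.079) of MacB2-2wk or replicate 3 of MacB3-2wk (0.0628). Both were lost when only the 6 libraries compared were fitted (0.126 and 0.0699).

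For Hells, at 20.0, 30.1 and 3.85 FPKM in MacB3-2wk and 5.33, 2.97 and 9.56 in MacB2-2wk, the groups overlapped, and it was not called. Without replicate 1 of MacB2-2wk the count of called genes fell from 15 to 9. Over the fits that left out 1 library, 922 to 1253 of all genes were called, beside 541 higher and 722 lower in the full fit. Mitosis genes were higher in 11 of 20 cases and lower in none, with Top2a at 45.9 to 66.1 against 13 to 14.5 FPKM. E2f1 was higher, at 9.23 to 12.8 against 3.20 to 5.54 FPKM (1.25 ± 0.23, limma, adjusted p = 0.0017), and Samhd1 lower, at 234 to 256 against 505 to 567 (-1.12 ± 0.17). Here fibroblast markers were lower in MacB3 (37.5 to 66.5 against 181 to 237 FPKM), as were endothelial markers (70.8 to 118 against 185 to 580), and the 4 carcinoma markers summed to 4.29 to 12.5 against 15.3 to 20.5 FPKM, with none of the 4 called. The part of these cells in the result was not tested.

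**Figure D5:**
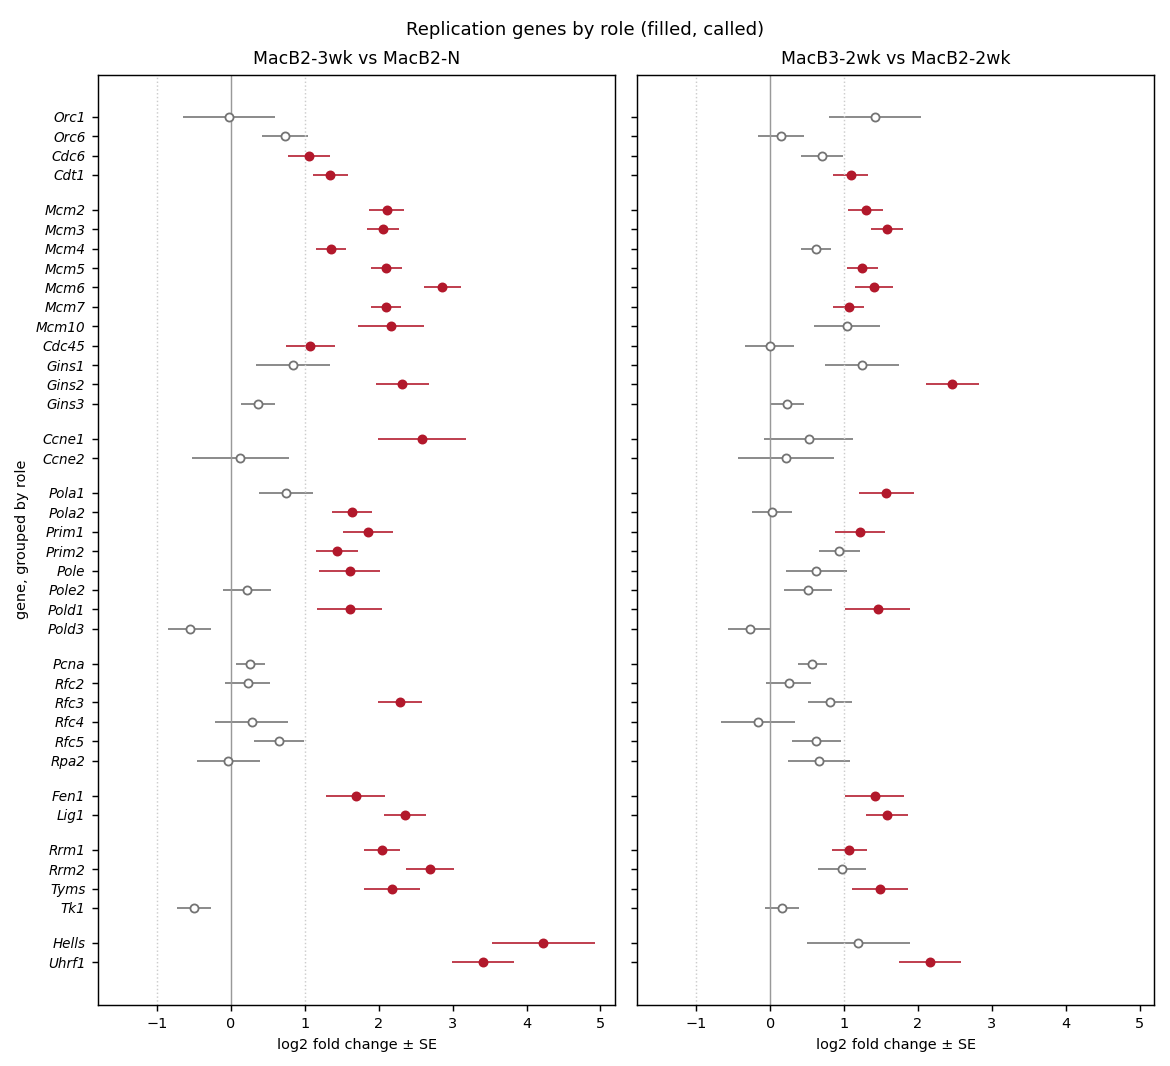
Log2 fold change (point) and SE (bar) of each replication gene, grouped by role, for MacB2-3wk against MacB2-N (left) and MacB3-2wk against MacB2-2wk (right), with called genes filled and dotted lines at a fold of 2. Helicase and Okazaki fragment genes are called in both panels, and of the clamp, clamp loader and single-strand binding genes only Rfc3 is called, in the left panel.

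At 3 weeks no replication gene differed between MacB3 and MacB2 by the limma test, beside 1.61% of all genes higher and 1.03% lower, and at an unadjusted p under 0.05 there were 4 of 39 against 15.5% of all genes. The median log2 fold change was 0.18 (all genes, -0.04), and the medians within lanes were 0.36, -0.07 and 0.31. Lig1 was at 40.4, 35 and 37.2 FPKM in MacB3-3wk and 24.9, 18.4 and 18 in MacB2-3wk, without overlap but short of the threshold. Mcm6 (19.4 to 35.6 against 18.6 to 34.1) and Hells (23 to 96.0 against 26.8 to 105) overlapped almost completely. A missed threshold does not show equal levels.

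From 2 to 3 weeks within MacB3 no gene was called either, beside 0.28% of all genes higher and 0.035% lower, and 4 of 39 had an unadjusted p under 0.05 against 8.6% of all genes. The median log2 fold change was 0.18. Hells had the largest estimate, 1.93 ± 0.70, with libraries at 96.0, 74.3 and 23 FPKM at 3 weeks and 20.0, 30.1 and 3.85 at 2 weeks that overlapped (limma, adjusted p = 0.336). The change between weeks was compared directly between MacB3 and MacB2 with an interaction term. Its median over the 39 genes was -0.70, with 33 estimates below 0, but none was called, and 12 had an unadjusted p under 0.05 against 6.53% of all genes. The largest were Gins2 (-2.42 ± 0.51, limma, adjusted p = 0.388) and Uhrf1 (-2.35 ± 0.59, adjusted p = 0.394). No gene of the whole table was called in this interaction.

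At 2 weeks MacB3 was also compared with MacA. Of the 39 genes 1 was higher in MacB3 and none lower, beside 7.2% and 7.28% of all genes, and the median log2 fold change was -0.23 (all genes, -0.06). The gene was Rfc3, at 27, 23.8 and 23.6 FPKM in MacB3-2wk and 8.05, 11.7 and 7.70 in MacA-2wk, which did not overlap (1.36 ± 0.30, limma, adjusted p = 0.0025). Prim2, the large primase subunit, was lower in MacB3 by a log2 change of -0.99 ± 0.28 (adjusted p = 0.015), just short of a fold of 2. E2f1 was at 11.1 FPKM in MacB3-2wk and 18.2 in MacA-2wk, and Ccna2 at 37.1 and 37.0. With libraries scaled to their protein-coding sum, which moves the median of all genes to -0.32, 5 of the 39 were called. Newly called were Cdc45, Prim2, Pold3 and Rrm2, each with a lower mean FPKM in MacB3-2wk than in MacA-2wk before scaling. Counts of all genes under this scaling are given further below. The call of Rfc3 was kept under all 16 alternatives.

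Rfc3 also differed in how it changed from naive to 2-week lungs. In MacA it went from 15.9, 19.2 and 11.9 FPKM to 8.05, 11.7 and 7.70, and in MacB2 from 5.6, 3.66 and 2.76 to 11.2, 11 and 20.4. Each pair of groups was without overlap, in opposite directions, but only narrowly in MacA (11.9 against 11.7 FPKM). The change in MacA alone was not called, the smallest adjusted p of the 39 genes there being 0.206 in limma. The interaction was 2.30 ± 0.42 in log2 (limma, adjusted p = 0.031), and Rfc3 was the only one of the 39 genes called in it, beside 0.134% of all genes higher and 0.0874% lower. Its adjusted p lay between 0.0152 and 0.0836 over 21 alternatives and passed 0.05 in 7 of them, each of which left out 1 library.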

How the data were processed

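RNA was sequenced from 24 libraries of sorted lung macrophages and monocytes, in 8 groups of 3. Reads were aligned and quantified by the authors with TopHat2 and Cufflinks 2.0.2 on mm10, per the submitters' processing notes. The deposited values were taken as FPKM; the table's header names no unit, and the sources used here do not state whether counting used strand. Libraries were prepared from total RNA with the Ovation FFPE kit and mouse rRNA depletion oligos, per the labels' protocols.

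The test covered the 17156 of 37979 genes that reached a mean of 1 FPKM in any group. They were compared as log2(FPKM + 1), without rescaling, in 1 limma 3.58.1 fit (R 4.3.3) with a mean per group, 16 residual degrees of freedom, a mean-variance trend and Benjamini-Hochberg adjustment. The 39 genes, the gene lists and the marker lists were chosen with earlier results of these data known. In each comparison the 6 called genes with the largest changes were named, and from each other list up to 4; Mki67, Top2a, E2f1, Ccna2, Cdkn1a and Samhd1 could be named throughout. Some listed results are not reported here. Groups followed the sample titles; the design text once gives MacB3 of 2 weeks another time. The alternatives were pseudocounts of 0.1 and 0.5, other filters, scalings and fold minima, fits of fewer groups, a replicate block and leaving out each library.

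Replicate numbers pair MacB samples, since the labels tie each number to a lane. Deviations of 45 same-lane pairs correlated at -0.137 to 0.386 (median -0.00589). Gene positions and exon overlaps came from GENCODE M21 (GRCm38) by gene ID, since the table's loci overlapped these positions for 7 of the 39 genes. Motifs were searched in RefSeq promoter windows.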

Additional observations from a re-analysis of the deposited data

Results flagged for a closer look

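The change of Rfc3 from naive to 2-week lungs differed between MacB2 and MacA in a test of the difference itself. The interaction was 2.30 in log2(FPKM + 1), with an adjusted p of 0.0308 in limma (n = 3 per group). The call was lost in 7 of 21 alternatives, each of which left out 1 library (limma, adjusted p up to 0.0836). Rfc3 encodes a subunit of the clamp loader. Its change in MacA alone was not called. It ranged from 11.9 to 19.2 FPKM in MacA-N and from 7.70 to 11.7 in MacA-2wk, and from 2.76 to 5.6 in MacB2-N and 11 to 20.4 in MacB2-2wk.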

How the results depend on the processing

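The count of called replication genes in MacB2-2wk against MacB2-N was 3 and moved to 10 with a pseudocount of 0.1, to 6 with 0.5, to 6 with no fold minimum and to 0 when only the compared groups were fitted. In MacB3-2wk against MacA-2wk it was 1 and became 2 with either pseudocount, 2 with quantile normalization, 4 with no fold minimum and 5 with scaling to the protein-coding sum. In MacB1-N against MacB2-N, 10 became 5 with quantile normalization and 3 with only the compared groups. In MacB2-3wk against MacB2-2wk, 13 became 4 with only the compared groups. Counts of all genes are given further below for only some of these settings, and the cause of the shifts was not tested.

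Leaving out 1 library at a time gave 8 to 12 genes in MacB1-N against MacA-N, 22 to 24 in MacB2-N against MacA-N, 6 to 10 in MacB1-N against MacB2-N, 1 to 5 in MacB2-2wk against MacB2-N, 23 to 25 in MacB2-3wk against MacB2-N, 9 to 14 in MacB2-3wk against MacB2-2wk, 9 to 15 in MacB3-2wk against MacB2-2wk, 1 to 4 in MacB3-2wk against MacA-2wk and 0 to 1 in the interaction of MacB2 and MacA. In the same order, the counts of all genes called were 3690 to 3924, 3231 to 3569, 607 to 1399 and 141 to 295. They went on with 2167 to 2452, 459 to 749, 922 to 1253, 2156 to 2687 and 17 to 57. The other comparisons stayed at 0 replication genes. Of 688 alternative values for 41 named results, 625 kept the call, 63 lost it and 0 reversed.

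With the replicate block over all 24 libraries the counts were 12, 23, 9, 0, 4, 25, 13, 14, 0, 0 and 1 in the order of the plot of changes, and the pairing changed no count by over 1.5 times; the calls of single named genes lost under the block are given with those genes.

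Over all genes, other scalings moved the split of higher and lower calls. Quantile normalization changed it from 2572 and 1495 to 1930 and 2161 in MacB1-N against MacA-N, from 601 and 292 to 423 and 422 in MacB1-N against MacB2-N, from 284 and 39 to 209 and 71 in MacB2-2wk against MacB2-N, from 1659 and 865 to 1374 and 1234 in MacB2-3wk against MacB2-N, and from 541 and 722 to 676 and 527 in MacB3-2wk against MacB2-2wk. Scaling to the protein-coding sum, an alternative chosen after seeing the data, changed it to 1417 and 2239 (from 1838 and 1745) in MacB2-N against MacA-N, 766 and 200 in MacB1-N against MacB2-N, 1837 and 564 in MacB2-3wk against MacB2-N, 610 and 111 (from 525 and 219) in MacB2-3wk against MacB2-2wk, and 838 and 2192 (from 1235 and 1249) in MacB3-2wk against MacA-2wk. It moved the median of all genes to 0.26 in MacB1-N against MacB2-N and -0.32 in MacB3-2wk against MacA-2wk. Fitting only the compared groups cut the 893 genes called in MacB1-N against MacB2-N to 333, and the 135 of MacA to 3. FPKM holds no counts, so no interval for counting error can be given.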
